A study of Mus musculus with 6 samples.

Results

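Hprt encodes hypoxanthine-guanine phosphoribosyltransferase, the salvage enzyme that returns hypoxanthine and guanine to IMP and GMP. It was followed here with 9 further genes of purine metabolism, in differentiating mouse embryonic stem (ES) cells with and without induction of miR-200c and miR-141. The genes were salvage genes (Hprt, Aprt and Adk), the adenosine deaminase gene Ada and the PRPP synthetase gene Prps1. With them were de novo synthesis genes (Ppat, Gart, Paics and Atic) and Impdh2, an enzyme of GMP synthesis. Hprt was selected on its measured values, the difference between treated and untreated cultures on these same arrays, and the other genes were added for their place in the pathway. The Hprt values are therefore given as a description with no test. All Hprt probe sets were used, and each other gene was read from its brightest probe set that carries a single gene symbol. Of the 10 genes, 9 had such a probe set and all 9 passed the filter on low values, out of 18193 genes with a probe set and 9997 tested. Impdh2 had none under its symbol and was not analysed here.

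The ES cell line A2.miR200c carries a doxycycline-inducible cassette with the genomic miR-200c/miR-141 cluster, placed into modified A2lox cells. Induced cultures received 500 ng/mL doxycycline on days 2 and 4 of differentiation as embryoid bodies, and were sampled on days 3, 4 and 5. Untreated cultures of the same line were sampled on the same days, without doxycycline. Each treatment and day had 1 Affymetrix MOE430 2.0 array, 6 in all, so there was no replicate within a day. An effect of doxycycline itself cannot be told apart from that of the microRNAs, and a change in the mix of cells cannot be told apart from a change of RNA per cell. In cells of the A2lox kind the inducible cassette is known to be placed next to Hprt on the X chromosome. These arrays do not separate transcript started at the Hprt promoter from transcript started in the cassette, and the part of the cassette in the Hprt signal was not tested.

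Purine nucleotides are made by 2 routes. The de novo route builds IMP step by step on PRPP, the activated ribose phosphate that PRPP synthetases supply, and IMP is then turned into AMP and GMP. The salvage route joins free bases to PRPP or phosphorylates nucleosides, and needs far less energy. In ES cells Hprt is best known as a selectable locus, because cells without the enzyme survive 6-thioguanine and die in HAT medium.

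The mature sequences of the 2 microRNAs are shown because doxycycline was given to induce them. The paper reports that ES cells also express the miR-200 family, to which both belong, without induction. They come from RefSeq, build GRCm38.p6, minus strand, at chr6:124718324-124718346 for miR-200c-3p and chr6:124717917-124717938 for miR-141-3p. Each runs 5′ to 3′, and capitals mark the seed, bases 2 to 8. The 2 seeds are not identical, so the microRNAs form separate seed groups.
mmu-miR-200c-3p: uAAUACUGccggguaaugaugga
mmu-miR-141-3p: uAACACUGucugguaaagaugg

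Promoters from RefSeq (GRCm38.p6) were matched for 10 of the 10 genes, and the 250 bases before each gene start were searched on both strands. The E-box, which Myc proteins bind, was searched as CACGTG, and the TATA box as TATAAA. The CCAAT box was searched by the letters of its name. The GC box was searched as GGGCGG and was added after the sequences were seen. Shown 5′ to 3′ are 3 windows whose genes behaved differently on the arrays. They are Hprt at chrX:52987828-52988077 (plus strand), Prps1 at chrX:140456353-140456602 (plus strand) and Paics at chr5:76951052-76951301 (plus strand). Capitals mark matches to any of these letters on either strand, and no match overlapped another in these 3 windows.
Hprt: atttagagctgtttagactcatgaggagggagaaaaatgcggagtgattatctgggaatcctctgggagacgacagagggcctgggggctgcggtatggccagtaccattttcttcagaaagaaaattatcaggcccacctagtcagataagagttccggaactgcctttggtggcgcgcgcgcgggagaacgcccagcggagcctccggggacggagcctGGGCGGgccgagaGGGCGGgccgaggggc
Prps1: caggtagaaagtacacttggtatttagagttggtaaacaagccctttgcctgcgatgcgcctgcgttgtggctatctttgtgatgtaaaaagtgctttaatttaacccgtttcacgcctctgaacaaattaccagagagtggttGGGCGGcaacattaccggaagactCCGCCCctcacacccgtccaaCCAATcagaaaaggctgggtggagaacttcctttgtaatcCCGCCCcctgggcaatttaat
Paics: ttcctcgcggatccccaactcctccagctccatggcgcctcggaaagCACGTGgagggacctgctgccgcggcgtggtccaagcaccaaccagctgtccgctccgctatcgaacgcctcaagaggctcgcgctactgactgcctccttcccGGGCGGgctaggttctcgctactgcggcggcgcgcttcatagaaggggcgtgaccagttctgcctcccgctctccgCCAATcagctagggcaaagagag

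The GC box was found in 10 of the 10 genes, against 32.7% of all 32851 promoter windows of the same length. It was added after the sequences were seen, so its count is no independent comparison. A gene was counted if any of its windows matched (11 windows for the 10 genes), while the shares are of single windows. Hprt had 2 GC boxes and none of the other letters. The E-box was found in 3 genes (Paics, Atic and Impdh2), against 6.02% of all windows. The CCAAT box was found in 6 genes, against 33.8%, and the TATA box in 0 genes, against 12.4%. These matches describe the letters in the windows and show no binding.

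Hprt was high on every induced array and low on every untreated one. Its intensity, a background-modelled brightness on a linear scale, was 1671, 2539 and 2977 in induced cells on days 3, 4 and 5, against 234, 125 and 102 in untreated cells. The lowest induced array was therefore above the highest untreated array, and all 6 arrays exceeded the background level of 36.7. The intensity in induced cells was 7.15, 20.3 and 29.2 times that in untreated cells on days 3, 4 and 5. On the log2(intensity + 50) scale used for all differences below, induced minus untreated was 2.60, 3.89 and 4.31, with a mean of 3.60 ± 0.89 (SD over the 3 days).

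The widening gap came from both treatments. Hprt on day 5 was 0.81 above day 3 in induced cells and 0.90 below day 3 in untreated cells, on the log2 scale. Each of the 4 steps from a day to the next kept its direction, at 0.59 and 0.23 upward in induced cells and at -0.70 and -0.20 in untreated cells. Each of these changes rests on 2 arrays.

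Hprt had the largest difference in either direction of the 9997 tested genes on each day. The next gene upward was Ddit4, a stress-induced inhibitor of mTORC1 signalling, on day 3 (0.78 on the log2 scale), 2610528J11Rik on day 4 (1.49, with 134.8 in induced cells and a value below background, 15.7, in untreated cells) and Igfbp3, an IGF-binding protein, on day 5 (2.62). The largest differences downward were those of Sbsn on day 3 (-1.01), Kdr, the VEGF receptor that marks early mesoderm, on day 4 (-2.25) and Hbb-bh1, an embryonic beta-like globin, on day 5 (-4.20). In mean difference over the 3 days the next gene by size was again Hbb-bh1, at -1.42 ± 2.40 (SD over the 3 days), which came from day 5 alone. The next gene upward with the same sign on all 3 days was Galnt3, a mucin-type O-glycosylation enzyme, at 1.32 ± 0.96. Just 2 genes (0.02% of those tested), Hprt and Sbsn, were at least 2-fold apart on day 3, and 58 (0.58%) and 349 (3.49%) on days 4 and 5.

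**Figure D1:**
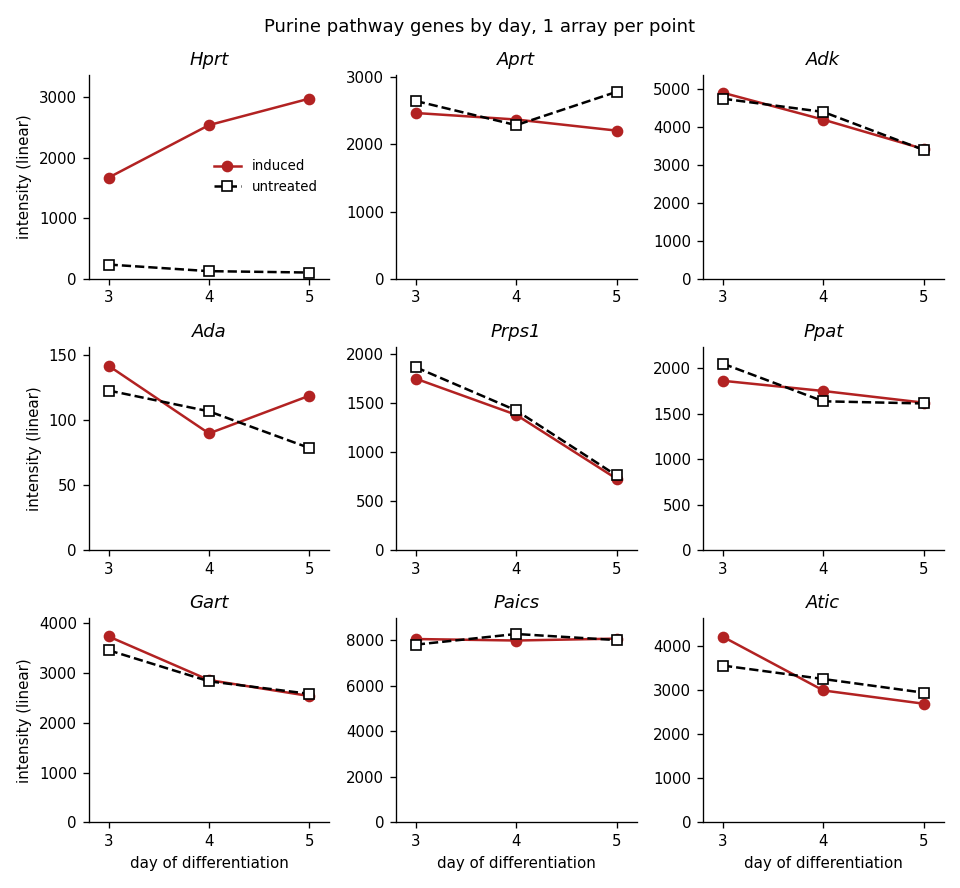
Intensity (linear axis from 0) of each of the 9 measured genes against day of differentiation, with filled red circles for induced and open squares for untreated cultures, 1 array per point. The Hprt lines are far apart and diverge, while the lines of the other 8 genes lie close together on each day.

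Neither the other salvage genes nor Ada showed the Hprt pattern. Aprt, the adenine counterpart of Hprt, had intensities of 2467, 2370 and 2205 in induced cells on days 3, 4 and 5, against 2646, 2286 and 2782 in untreated cells. The ranges of the treatments overlapped, and the mean difference on the log2 scale was -0.13 ± 0.19 (SD over the 3 days). Its 95% interval in the limma fit, -0.33 to 0.08, corresponds to 0.794 to 1.06 times the untreated level. The second Aprt probe set had a mean difference of -0.15 on the log2 scale. It was lower in induced cells on each day, at -0.16, -0.03 and -0.26, while the chosen set changed sign.

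Adk, adenosine kinase, which phosphorylates adenosine to AMP, had intensities of 4894, 4186 and 3413 in induced cells, against 4738, 4389 and 3389 in untreated cells. The values ran downward together, and the mean difference was 0.00 ± 0.06 on the log2 scale (95% interval -0.10 to 0.09). Ada, adenosine deaminase, which converts adenosine to inosine, was dim, at 142, 90.0 and 119 in induced cells, against 123, 107 and 78.8 in untreated cells. Its mean difference was 0.12 ± 0.28 (95% interval -0.21 to 0.46), so a change of up to 1.37-fold upward lies within the interval. The day 5 difference of Ada, 0.39 on the log2 scale, was the largest daily difference among these 8 genes, and its day 4 difference had the opposite sign, at -0.16.

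PRPP supply and de novo synthesis likewise gave nearly equal levels in both treatments. Prps1, one of the PRPP synthetases and like Hprt an X-linked gene, had intensities of 1748, 1380 and 730 in induced cells, against 1864, 1425 and 763 in untreated cells. It was lower in induced cells on all 3 days but by little, with a mean difference of -0.06 ± 0.02 on the log2 scale (95% interval -0.21 to 0.08). Of all genes tested, 14.3% were lower on all 3 days.

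Ppat, the amidophosphoribosyltransferase that commits PRPP to the de novo route, had intensities of 1863, 1751 and 1623 in induced cells, against 2051, 1638 and 1614 in untreated cells. Gart, a trifunctional enzyme of the early steps, had 3736, 2859 and 2538 in induced cells, against 3459, 2834 and 2582 in untreated cells. Their mean differences were -0.01 ± 0.12 and 0.03 ± 0.07 on the log2 scale. On these chosen probe sets neither gene kept its sign over the 3 days. Some of their other probe sets did. For Gart these were at 0.14, 0.08 and 0.06 and at 0.08, 0.14 and 0.18, while its dimmest set changed sign. For Ppat the next brightest set was at -0.41, -0.06 and -0.09, and its remaining set was below background.

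Paics, a bifunctional enzyme of the middle steps, was level throughout, with intensities of 8058, 7992 and 8076 in induced cells, against 7811, 8279 and 8012 in untreated cells. Its mean difference was 0.00 ± 0.05 on the log2 scale, with the narrowest interval of the 8 genes, -0.07 to 0.07. Atic, which carries out the final 2 steps to IMP, had intensities of 4204, 2988 and 2687 in induced cells, against 3552, 3247 and 2937 in untreated cells. It was higher in induced cells on day 3 and lower on days 4 and 5, for a mean difference of 0.00 ± 0.21.

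For induction over days 3 to 5, 0 of the 8 other genes passed an adjusted p of 0.05 (limma, Benjamini-Hochberg over 9997 genes), where percent called over all genes was 0. The lowest adjusted p among them was 0.650, and 0 of 8 had an unadjusted p under 0.05, against 842 of all genes tested. The fit gave the Ada interval the greatest width, and a p that misses the threshold does not show equal levels. Of the 8 genes, 5 were higher in induced cells on day 3, 3 on day 4 and 4 on day 5, where 51.8%, 54% and 53.2% of all genes were higher. None was higher on all 3 days, as 19.3% of all genes were. None of the 24 daily differences reached 2-fold, and they ran from -0.33 for Aprt on day 5 to 0.39 for Ada on day 5. Of all genes tested, 3.9% reached 2-fold on some day.

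Whether the treatments moved apart with time, as they did for Hprt, was asked with a treatment by day term. This change of effect per day passed the threshold for 0 of the 8 genes (limma, lowest adjusted p = 0.310) and for 0% of all genes, of which 1322 had an unadjusted p under 0.05. The gene with the lowest value was Atic, with an effect of -0.18 ± 0.06 per day on the log2 scale (SE, unadjusted p = 0.028 in limma), the opposite sign to Hprt. That sign rests on the chosen probe set. The second Atic probe set ran the other way, with induced minus untreated at -0.10, 0.06 and 0.24 on days 3, 4 and 5. With the mean of all probe sets the Atic effect was -0.01 per day.

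**Figure D2:**
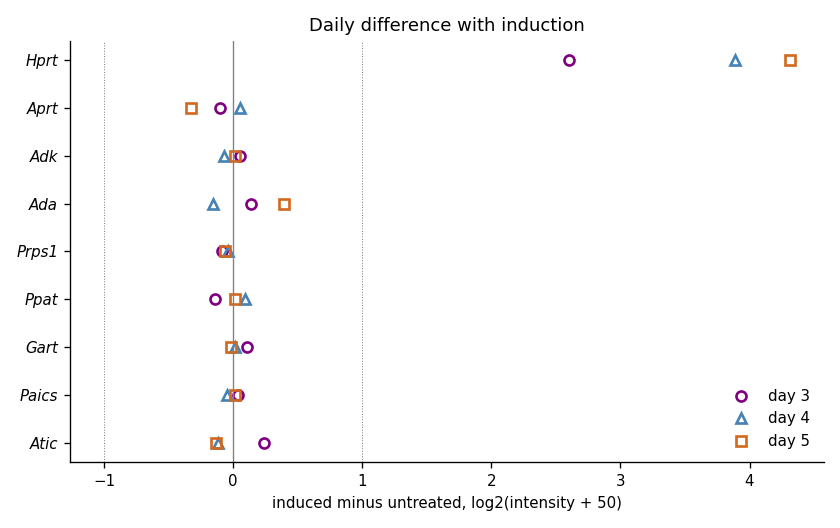
Induced minus untreated on the log2(intensity + 50) scale for each day (symbols; each from 2 arrays) and gene; dotted lines mark 2-fold. Hprt stands at 2.60 to 4.31, while the other 8 genes lie between -0.33 and 0.39.

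Several of these genes differed between days. In the same fit 5 of the 8 genes were lower on day 5 than on day 3 and 0 were higher (limma, adjusted p under 0.05), where 39.9% of all genes passed in either direction with 20.6% upward and 19.2% downward. On the chosen probe sets Prps1 fell most, by 1.22 ± 0.07 on the log2 scale (SE, limma adjusted p = 0.0016). Most of its fall came after day 4, by 0.87 in induced and by 0.86 in untreated cells.

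Adk fell by 0.50 ± 0.05 (adjusted p = 0.0031), Gart by 0.48 ± 0.06 (adjusted p = 0.0046) and Atic by 0.45 ± 0.10 (adjusted p = 0.024) on the log2 scale (SE, limma). Ppat was near the threshold, at -0.27 ± 0.08 (limma, adjusted p = 0.0496), and it missed the threshold with no filter (0.064), with no intensity trend (0.079), with the mean of all its probe sets (0.212) and without day 4 (0.095). Atic stayed just under the threshold with no intensity trend (limma, adjusted p = 0.0488) and without day 4 (0.049). Thus the call held for a salvage gene, the PRPP synthetase gene and 2 de novo genes, of which Atic held narrowly. The call was borderline for the remaining de novo gene that fell.

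Ada, at -0.31 ± 0.16 (adjusted p = 0.185), Aprt, at -0.04 ± 0.10 (0.750), and Paics, at 0.02 ± 0.03 (0.669), did not pass the test (SE, limma). Paics and Ppat are neighbours on chromosome 5 that are read in opposite directions from starts 276 bases apart (GRCm38.p6). With the mean of all its probe sets Paics was called higher on day 5 (0.20, adjusted p = 0.016 in limma), because its dimmest probe set was higher on day 5 by 0.57 in induced and by 0.38 in untreated cells.

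The median day 5 minus day 3 difference of the 8 genes was -0.35 in induced cells and -0.38 in untreated cells, against 0.02 and -0.02 over all genes tested. In both treatments 6 of the 8 genes (Adk, Ada, Prps1, Ppat, Gart and Atic) were lower on day 5 than on day 3, as were 39.5% of all genes. In untreated cells, then, Hprt and these 6 genes ran the same way, as did 51.8% of all genes. In induced cells Hprt ran upward, and of the 8 genes just Paics was not lower on day 5, at 0.00, where 52.2% of all genes were higher. The combination Hprt had, down in untreated and up in induced cells, was found in 0 of the 8 genes as tabulated and in 12.4% of all genes. With both steps required in each treatment, 111 genes (1.11%) had it, Hprt included.

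**Figure D3:**
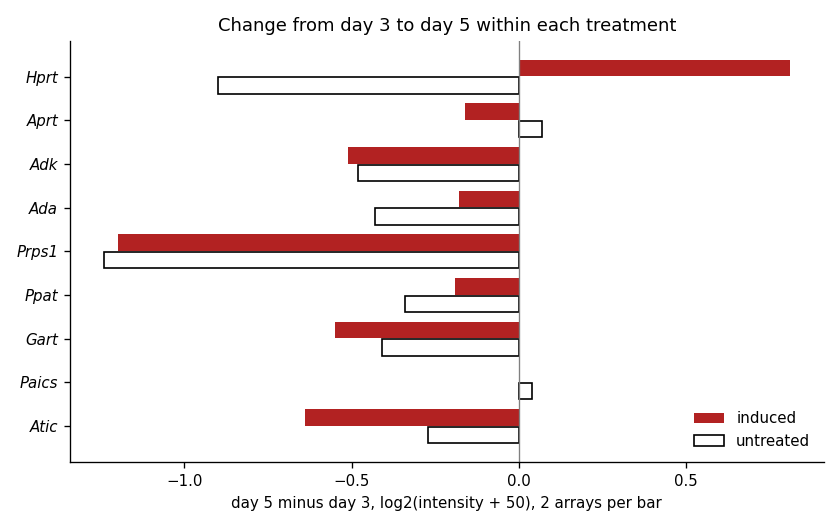
Day 5 minus day 3 on the log2(intensity + 50) scale for each gene, red bars for induced and open bars for untreated cultures, each from 2 arrays. Hprt is the one gene with long bars in opposite directions (0.81 induced, -0.90 untreated), while Prps1, Adk, Gart, Atic, Ppat and Ada point downward in both.

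Other probe sets of the same genes gave induction differences of the same order of size. The 8 genes had 22 probe sets beside the 1 of Hprt, and 19 of these were above background on all arrays. No daily difference on these 19 exceeded 0.41 in size, and mean differences ran from -0.19 to 0.13 on the log2 scale. On day 5, 16 of the 19 were lower than on day 3 in induced cells and 13 in untreated cells. Of all genes, 47.8% were lower in induced cells and 51.8% in untreated cells. Several of the 19 read the same gene, so they do not count as separate genes. The size of the day change depended on the probe set. The second Atic set changed by -0.96 in induced and -1.30 in untreated cells, against -0.64 and -0.27 on the chosen set. A dimmer Adk set changed by -1.21 and -1.32, against -0.51 and -0.48. Others changed less, such as the dimmest Gart set, at -0.33 and 0.01, against -0.55 and -0.41. The chosen Adk probe set is of a kind whose probes can match other transcripts too, and the next brightest Adk set had 1879, 1658 and 1286 in induced cells, against 2018, 1639 and 1206 in untreated cells.

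Of 42 further purine genes, 35 had a probe set and 29 were tested. For induction 0 of the 29 passed, where 0% of all genes did, with a median mean difference of -0.01, against 0.01 over all genes. The largest mean differences upward were those of Nt5e, the ecto-5′-nucleotidase that makes adenosine outside cells (0.61 ± 1.07, SD over the 3 days), and Samhd1, a dNTP hydrolase (0.26 ± 0.07). Downward they were those of Adssl1, the muscle form of adenylosuccinate synthetase (-0.27 ± 0.30), and Mtap, which salvages methylthioadenosine (-0.19 ± 0.14). Nt5e was the single one at least 2-fold apart on any day, with intensities of 125, 588 and 365 in induced cells, against 124, 600 and 65.7 in untreated cells, so the treatments parted on day 5 alone.

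With time 10 of the 29 were lower on day 5 and 3 were higher (limma), where 19.2% of all genes were called lower and 20.6% higher. Among the 10 were both of the tested further de novo genes, Pfas (-0.52 ± 0.07, SE, adjusted p = 0.0058) and Adsl (-0.59 ± 0.09, adjusted p = 0.0078), and the PRPP supply genes Prps2 (-0.63 ± 0.08, adjusted p = 0.0050) and Prpsap2 (-0.42 ± 0.13, adjusted p = 0.0496). The others were Pnp, the purine nucleoside phosphorylase that feeds bases to Hprt (-0.50), Nudt1, which clears oxidized purine nucleotides (-0.67), the nucleotide kinase genes Guk1 (-0.36) and Nme2 (-0.18), and the nucleoside transporter genes Slc29a1 (-0.56) and Slc29a2 (-0.54). Higher on day 5 were Adssl1 (2.48 ± 0.16) and the adenylate kinase family genes Ak1 (0.66) and Ak3 (0.83). In both treatments 17 of the 29 were lower on day 5, against 39.5% of all genes, and 4 had the Hprt combination of directions, against 12.4%.

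Pathways that share precursors with purine synthesis were counted the same way. Of 13 pyrimidine synthesis genes tested, 0 passed for induction, 5 were lower on day 5 (Cad, Dhodh, Uck2, Dctd and Dut, by 0.39 to 0.56) and 2 were higher (Upp1, 1.26, and Cmpk1, 0.24). Upp1, uridine phosphorylase, was 1.04 higher in induced cells on day 5 on the log2 scale after -0.10 and -0.33 on days 3 and 4. Ctps2, a CTP synthase gene, was higher in induced cells on all 3 days, by 0.33, 0.12 and 0.66, and is named here after its values were seen. Of 9 folate one-carbon genes tested, which supply formyl groups to the de novo route, 0 passed for induction and 6 were lower on day 5. These were Mthfd1, Mthfd2, Mthfd1l, Shmt1, Slc25a32 (-0.97) and Fpgs, while Shmt2 was higher (0.88). Mthfd2 was at -0.76 for induced minus untreated on day 5, after 0.09 and 0.12 on days 3 and 4. The shares of all genes called, 0% for induction, 19.2% lower on day 5 and 20.6% higher, apply to these lists too.

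Hprt is itself widely used as a reference gene, so 11 other common reference genes were set beside it. Their mean induction differences ran from -0.09 for Tbp, the TATA-binding protein, to 0.10 for B2m, and 0 of 11 passed for induction. With time 4 of the 11 were called, where 39.9% of all genes were. B2m (1.09), Ywhaz (0.31) and Pgk1 (0.19) were higher and Eef1a1 (-0.07) was lower on day 5. Of 4 Myc family genes 0 passed in either comparison, and Myc itself, a known activator of purine synthesis genes, was at -0.57 ± 0.29 for induction (SD over the 3 days, limma adjusted p = 0.573), with intensities of 527, 440 and 569 in induced cells, against 681, 627 and 1099 in untreated cells. Of 16 cell cycle genes 0 passed for induction, 6 were lower on day 5 (Pcna, Mcm2, Mcm3, Mcm5, Plk1 and Bub1) and 2 were higher (Mki67 and Rrm1). Beside these counts stand 0% of all genes called for induction, 19.2% lower on day 5 and 20.6% higher. The same shares apply to the reference and Myc family lists.

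The neighbours of Hprt on the X chromosome had smaller differences. Of the 5 protein-coding genes on each side, 9 had a probe set and 7 were tested. For induction 0 of the 7 passed, as did 0% of all genes, so this count says nothing particular about the neighbours. None had a daily difference the size of that of Hprt, with mean differences from -0.66 to 0.33 on the log2 scale. Phf6, a chromatin-associated protein gene 31 kb away, had intensities of 428, 419 and 342 in induced cells, against 466, 490 and 413 in untreated cells. It was slightly lower in induced cells on each day, with a mean of -0.18 ± 0.07 (SD over the 3 days, limma adjusted p = 0.573). Plac1, a placental gene 48 kb away on the other side, had 12.2, 25.4 and 31.9 in induced cells, against 7.9, 27.9 and 285 in untreated cells, and exceeded background on 1 array, the untreated day 5 one.

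Further out, Ccdc160 was the one tested neighbour that was higher in induced cells on all 3 days, by 0.15, 0.28 and 0.56 on the log2 scale, and it was dim, above background on 4 arrays. Gpc4 and Gpc3, glypican genes, had mean differences of 0.14 ± 0.45 and -0.40 ± 0.48. Fam122b was at -0.18 ± 0.45 and Mospd1 at 0.01 ± 0.08. On each side of Hprt, 1 gene had a probe set below background on all arrays and was not tested (1700080O16Rik and Fam122c), and Etd had no probe set under its symbol.

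**Figure D4:**
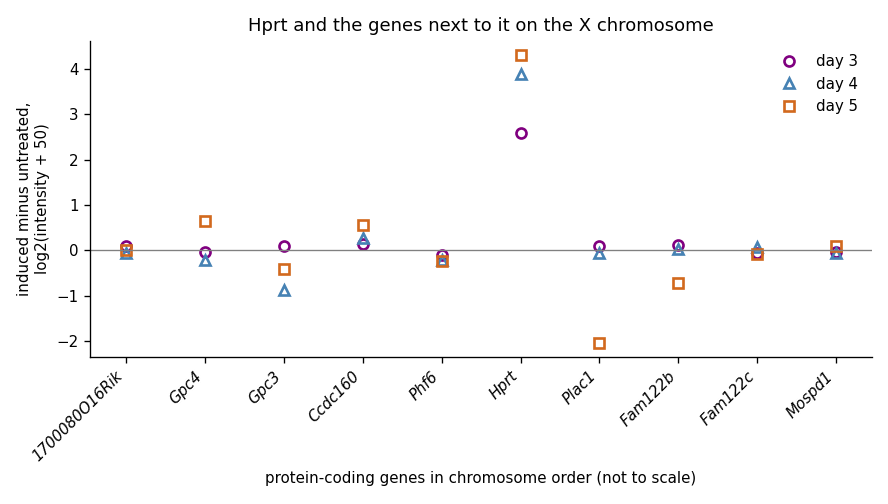
Induced minus untreated on the log2(intensity + 50) scale by day for Hprt and the 9 measured genes among the 5 on either side, in chromosome order and not to scale. Hprt alone lies above 1 on every day, and the largest neighbouring difference is that of Plac1 on day 5, at -2.03.

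The genes whose 6-array pattern was most like that of Hprt were sought among 1564 genes with a log2 range of at least 1. Of the 8 other purine genes just Prps1 had such a range (1.29), so the remaining 7 could not appear among the nearest. With each gene centred and divided by its own SD, the nearest was Slc40a1, the iron exporter ferroportin, at a root mean square distance of 0.25 SD units. It had intensities of 528, 635 and 681 in induced cells, against 392, 261 and 210 in untreated cells, so the shape was like that of Hprt with a mean difference of 1.01 ± 0.56 on the log2 scale (SD over the 3 days). Next came Wfdc2 (0.29), Anxa1, annexin A1 (0.37), Cldn6, a tight junction claudin of early epithelium (0.37), and Tnk1, a tyrosine kinase (0.39). Measured the same way whatever their range, the 8 purine genes were at distances from 1.05 for Ada to 1.62 for Aprt. No distances over all genes are given beside these, so they show nothing particular to purine genes. Division by the SD also enlarges the small changes of level genes such as Paics (log2 range 0.08).

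The labelled cell type was checked on the same arrays. Pou5f1 was at 4665, 4751 and 2940 in induced cells, against 4858, 4560 and 1014 in untreated cells. The summed level of 6 pluripotency and epiblast markers on day 5 was 10175 in induced cells and 3604 in untreated cells. That gap came mainly from Pou5f1, Nanog (1555 against 394), Sox2 (2190 against 1120) and Fgf5 (2715 against 499). Zfp42 (460 against 327) and Dppa4 (315 against 251) were closer and had fallen since day 3 in both treatments. The 5 tested mesoderm markers were all higher on day 5 than on day 3 (limma, adjusted p under 0.05), as were 20.6% of all genes. Their summed level was 223, 3813 and 12354 in induced cells on days 3, 4 and 5, against 266, 9130 and 13034 in untreated cells, so the treatments were farthest apart in ratio on day 4. Kdr was at 205 in induced cells and 1160 in untreated cells on that day. The close sums on day 5 hide markers that ran opposite ways. On that day Mixl1 was at 3373 in induced and 1714 in untreated cells. Kdr was at 1763 against 3158 and Pdgfra at 698 against 1330, while Aplnr (5860 against 6124) and Mesp1 (660 against 709) were closer. These markers thus moved with day, and on some days with treatment, and their part in the day differences above was not tested. Of the feeder fibroblast markers 0 of 6 were tested, and Fap, Dpt, Lum and Ogn were below background on every array. Dcn exceeded background on 3 arrays, reaching 61.6, and Thy1 on 2 arrays, reaching 56.5. The array medians were 34.51 to 36.94.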

How the data were processed

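RNA from 6 cultures (induced and untreated, days 3, 4 and 5) was hybridised to 6 arrays. The deposited values are model-based intensities on a linear scale, which the authors computed and normalised in dChip; versions and detection calls are not given in the sources used here. The number of arrays limits the precision, and nothing says that the days came from separate cultures.

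Of 45037 probe sets, 34945 carried 1 gene symbol, 932 several and 9160 none. Each gene took the single-symbol probe set with the highest mean (18193 genes), and genes whose highest value reached the median of all gene values, 80.1, were tested (9997). Values were taken as log2(intensity + 50), which damps differences of dim genes. Background was the 95th percentile of 78 sensory receptor genes, 36.7.

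limma 3.58.1 in R 4.3.3 (lmFit, eBayes with trend, two-sided, Benjamini-Hochberg over all genes tested) was fitted with treatment and day as factors, which leaves 2 residual degrees of freedom. The error term is thus how far each day's difference strays from a single shared effect. A treatment by linear day term was fitted separately. The fit was tested on simulated data. Alternatives were pseudocounts of 20 and 100, no filter, quantile normalization, no trend, the mean of all probe sets, days left out, and other models. Named genes were the members, list genes past the threshold or with the largest mean induction differences, 5 neighbours on each side of Hprt, the next gene in mean difference and the 5 nearest patterns. The next genes each way on each day and Galnt3 were named after their values were seen. The members and lists were chosen with earlier results of these data known.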

Additional observations from a re-analysis of the deposited data

Results flagged for a closer look

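Hprt was flagged because its change from day 3 to day 5 ran in opposite directions in the treatments. On the log2(intensity + 50) scale it was 0.81 in induced cells and -0.90 in untreated cells. The same combination of directions was found in 12.4% of all genes tested, so the directions alone are not particular to Hprt. Each value rests on 2 arrays, and the difference between them was not tested.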

How the results depend on the processing

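The mean Hprt difference, 3.60, was 3.58 with quantile normalization, 3.83 with a pseudocount of 20 and 3.30 with a pseudocount of 100; the settings of the fit were not applied to it, since it was not tested. Genes called for induction numbered 0, against 145 with treatment by linear day added and 2 without day 5, and 0 of the 8 other purine genes were called under any of these alternatives. Genes called for day 5 minus day 3 numbered 3984, against 2454 without day 4. Genes called for the change per day numbered 0, against 11 with a pseudocount of 100. The mean of all probe sets made 1 of the 8 genes (Gart) higher under induction on all 3 days, and quantile normalization gave 1 (Paics) the Hprt combination of directions. Several induction differences near 0 changed sign: Adk to 0.00 with quantile normalization and 0.03 without day 4, Ada to -0.01 without day 5, Ppat to 0.05 and Gart to -0.01 without day 3, Paics to -0.03 with the mean of all probe sets, -0.02 without day 3 and 0.00 without day 5, and Atic to 0.03 with the mean of all probe sets and 0.06 without day 4 or day 5. Paics for day 5 minus day 3 was at -0.03 with quantile normalization. For the change per day, Adk was at 0.06 and Paics at 0.02 with the mean of all probe sets, and Paics at 0.03 with quantile normalization. The cause was not tested. The fit compared the treatments within each day, with day as a factor. The labels carry no replicate numbers, so no further block could be added. Precision was limited by 6 arrays, and dim genes such as Ada have damped differences.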
